A study of Mus musculus with 6 samples.

Results

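The genes described here are 10 components of transforming growth factor beta (TGF-β) and activin signalling, read in regulatory T cells (Tregs) labelled CREB-KO and CREB-WT. They were the receptor genes Acvr2a, Acvr1b, Tgfbr1 and Tgfbr2, the ligand gene Tgfb1, the signal transducer genes Smad2, Smad3, Smad4 and Smad7, and Lrrc32. The members were chosen from the measured values of this same comparison, so their values are given as a description and carry no test. Each gene had exactly 1 transcript cluster of its own (a cluster is the set of probes summarised for one transcript region), and none of these clusters was shared with another gene symbol, which made 10 clusters of 65956 on the array. All 10 lay above the median gene in their mean over the 6 arrays, and 0 reached 16, the log2 ceiling of a 16-bit scanner.

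Tregs were CD4+CD25+Nrp1+ cells from the spleens of untreated male B6 mice aged 10 to 12 weeks. The 3 CREB-KO mice were Foxp3creCREBfl/fl, in which loxP-flanked Creb1 is cut by a Cre recombinase expressed from the Foxp3 locus. The 3 control mice are called WT in the labels, while the study's methods describe CREBfl/fl mice without Cre, so the Cre allele and the loss of CREB cannot be told apart. Each array came from a separate mouse. The comparison asks which transcripts of Tregs differ when CREB is deleted in them.

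TGF-β and activin are secreted proteins of one family. The ligand brings a type II receptor (TGFBR2 for TGF-β, ACVR2A or ACVR2B for activin) together with a type I receptor (TGFBR1 or ACVR1B). The type I receptor then phosphorylates SMAD2 and SMAD3, which enter the nucleus with SMAD4 and bind DNA, and SMAD7 blocks this step in a feedback loop. TGF-β1 is made in a latent form, and LRRC32, also called GARP, holds this latent form on the surface of Tregs, where integrins can release it. In T cells the pathway is known for the induction of Foxp3 and for restraint of effector responses.

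Values are log2 expression values, and a difference is CREB-KO minus CREB-WT with its standard error (SE) from limma, a linear model fitted to all clusters. A cluster is called past the study thresholds where the groups differ at least 1.5-fold with an unadjusted p under 0.05, the limits the study used. Of all 65956 clusters, 2.35% were past these thresholds, 1067 higher and 480 lower. With each array centred on its own median the split was 798 higher and 677 lower, that is 54.1% higher in place of 69%. In limma 0 clusters passed at an adjusted p of 0.05, while 3689 had an unadjusted p under 0.05. The methods' t-test gave 3642 such clusters and also 0 after adjustment. Array medians were 4.55 to 4.58 for CREB-KO and 4.48 to 4.53 for CREB-WT, and correlations between arrays ran from 0.980 to 0.988. The Treg and CD4 T cell markers Cd4, Cd3e, Il2ra, Ctla4, Ikzf2 and Tnfrsf18 were high on every array, the lowest value being 11.9 (Ctla4 on CREB-KO replicate 1). Foxp3 lay on a cluster with several genes and was not analysed here.

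Creb1, the targeted gene, went against the labels. It read 14.10, 14.39 and 14.79 on the CREB-KO arrays and 13.30, 13.94 and 13.34 on the CREB-WT arrays, so that the groups differed by 0.90 ± 0.25 (SE; limma adjusted p = 0.814, unadjusted p = 0.0101). The sources used here do not say whether its probes fall in the deleted exons, so its signal is no check of the labels. Crem, a relative of Creb1 that responds to cAMP, was named after its values were seen. It read 7.34, 7.55 and 7.33 for CREB-KO and 5.95, 6.34 and 6.41 for CREB-WT without overlap, differing by 1.17 ± 0.16 (SE; limma adjusted p = 0.511, unadjusted p = 0.000269). Every direction below is that between the libraries labelled CREB-KO and those labelled CREB-WT.

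Of the 10 genes, Acvr2a alone separated the labelled groups. It was higher by 0.84 on CREB-KO arrays, and the other receptors and the SMADs overlapped between the groups. Lrrc32 had the largest difference in size, −0.93, but its CREB-KO arrays spread over a range that reached into the CREB-WT values. At the study thresholds 1 of the 10 was higher and 0 were lower, beside 0.911% higher and 0.659% lower among the 30184 genes with a cluster of their own (1.57% in either direction). Of these genes 275 were higher and 199 lower, 58% higher, but with each array centred on its own median 193 were higher and 299 lower, 39.2% higher, so the balance of directions over all genes turned with the scaling. Groups did not overlap for 1 of the 10, beside 11.6% of all genes. Nothing is read from these counts, because the members were picked on this contrast. The median difference of the 10 was 0.057, beside 0.036 over all genes, with 6 above 0 and 4 below.

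**Figure D1:**
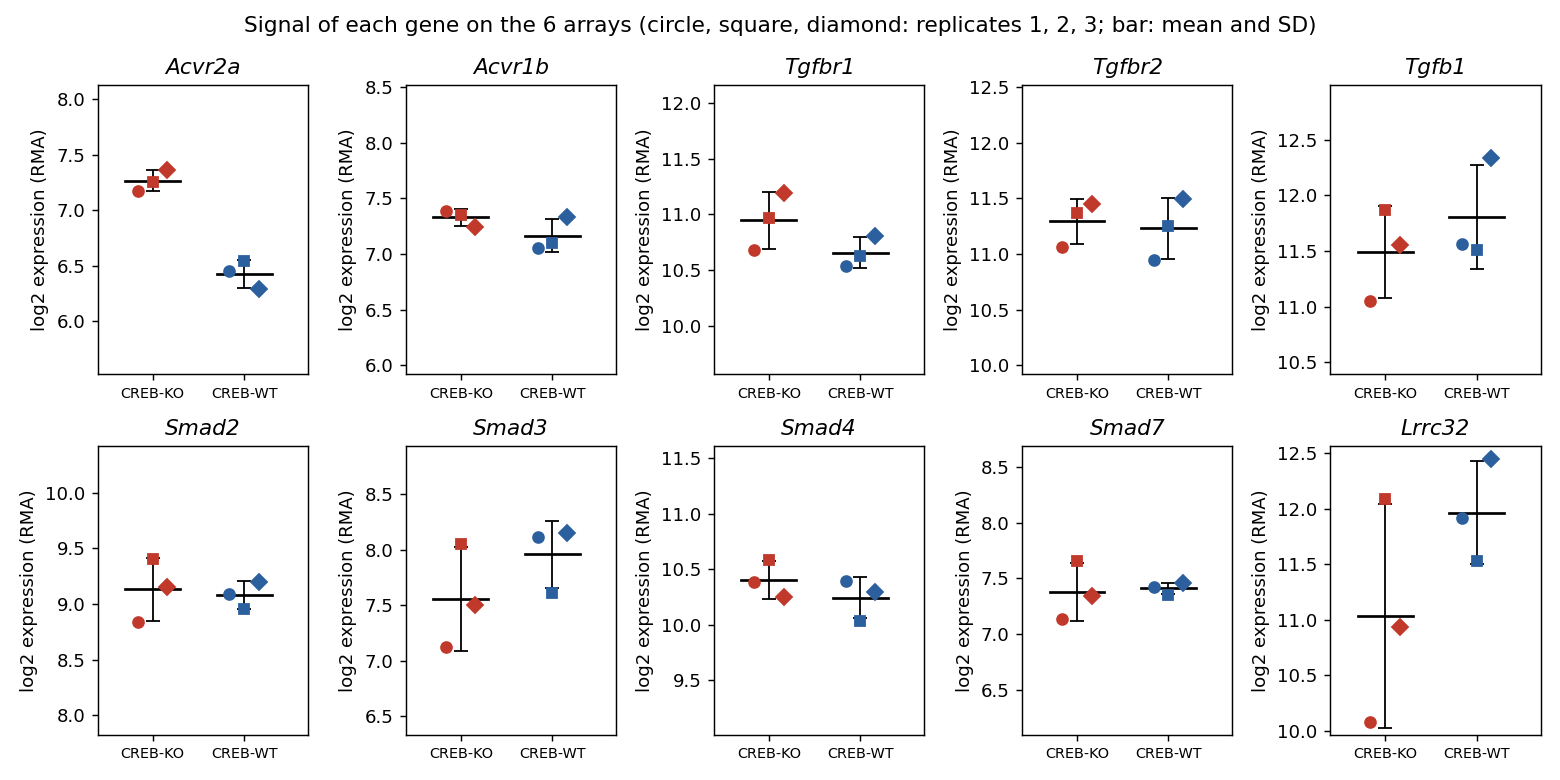
Log2 expression (RMA, vertical axis, the same span in every panel) of the 10 genes on the 3 CREB-KO arrays (red) and the 3 CREB-WT arrays (blue), with the mean as a line and the SD as a bar. Acvr2a is the only panel whose groups do not overlap, and the CREB-KO points of Lrrc32 run from 10.08 to 12.08.

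Acvr2a encodes a type II receptor that binds activins and related ligands (cluster TC0200000781.mm.1). It read 7.18, 7.26 and 7.36 on the CREB-KO arrays and 6.46, 6.54 and 6.29 on the CREB-WT arrays. Every CREB-KO value thus lay above every CREB-WT value, and 0.64 separated the lowest of the one group from the highest of the other. The group means were 7.26 ± 0.094 (SD, n = 3) and 6.43 ± 0.13 (SD, n = 3), and the difference was 0.84 ± 0.12 (SE), a 1.79-fold higher level. It was past the study thresholds in all 17 alternative settings that were run, with differences from 0.77 without CREB-WT replicate 3 to 0.98 with B cell markers as a covariate. Settings that changed only the error model or the set of clusters fitted kept the difference at 0.84. All settings reused the arrays on which the gene was chosen, so they describe the fit and add no independent support.

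The start of Acvr2a is shown because it is the one member that separated the groups and because CREB binds DNA at the cAMP response element. RefSeq windows from 250 bases before to 50 bases after the gene start (build GRCm38.p6) were given for 6 of the 10 genes, in 7 windows, since Tgfbr1 has a pair of starts. The full cAMP response element TGACGTCA, which reads the same on both strands, was in 0 of the 7 windows and in 1.79% of all 32851 windows. Its core TGACG, searched on both strands and contained in the full element, was in 0 of 7 and in 20.8% of all. The GC box GGGCGG, the motif of SP1-type factors, was searched likewise and was in 5 of 7 and in 35.7% of all. The Acvr2a window held 80.3% G and C against a median of 52.7% over all windows. The 250 bases before its start, chr2:48813859-48814108 on the plus strand, are printed 5′ to 3′ with the GC boxes of either strand in capitals.
Acvr2a: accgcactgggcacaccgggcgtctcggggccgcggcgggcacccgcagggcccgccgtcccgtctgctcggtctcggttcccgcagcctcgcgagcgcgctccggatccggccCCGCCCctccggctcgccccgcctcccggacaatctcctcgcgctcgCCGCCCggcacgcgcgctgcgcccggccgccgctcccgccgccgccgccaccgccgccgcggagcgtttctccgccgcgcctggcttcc
The stretch shows 2 GC boxes and neither form of the cAMP response element. A match to these letters is not a binding site, and their absence covers this window only.

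Acvr1b encodes ALK4, the type I receptor that pairs with ACVR2A in activin signalling (cluster TC1500001062.mm.1). It read 7.39, 7.35 and 7.24 on the CREB-KO arrays and 7.05, 7.10 and 7.34 on the CREB-WT arrays. CREB-WT replicate 3 lay within the CREB-KO values, so the groups overlapped. The means were 7.33 ± 0.074 (SD, n = 3) and 7.16 ± 0.15 (SD, n = 3), with a difference of 0.16 ± 0.13 (SE). Over the 17 alternatives the difference ran from 0.033 with B cell markers as a covariate to 0.25 without CREB-WT replicate 3, and it was past the thresholds in none of them.

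The TGF-β receptors overlapped between the groups. Tgfbr1, the type I receptor ALK5 (cluster TC0400000519.mm.1), read 10.68, 10.97 and 11.19 on the CREB-KO arrays and 10.54, 10.63 and 10.81 on the CREB-WT arrays. Only CREB-KO replicate 1 lay among the CREB-WT values, and the difference was 0.29 ± 0.17 (SE), which was 0.088 with macrophage markers as a covariate and 0.42 without CREB-KO replicate 1. Tgfbr2, the type II receptor (cluster TC0900003199.mm.1), read 11.07, 11.36 and 11.45 on the CREB-KO arrays and 10.95, 11.25 and 11.50 on the CREB-WT arrays. Its difference was 0.06 ± 0.19 (SE), under the spread within either group (SD 0.20 and 0.28), and it changed sign in 5 of 17 alternatives, from −0.16 to 0.20.

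**Figure D2:**
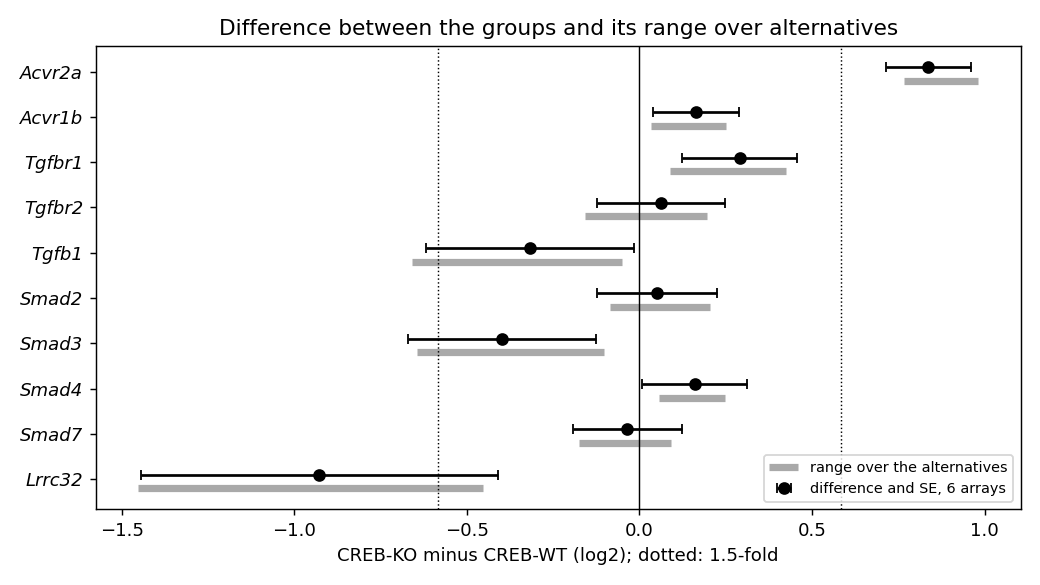
CREB-KO minus CREB-WT difference (log2, horizontal axis) of each gene with its SE (black point and bar) and its range over the alternative settings (grey bar), with dotted lines at 1.5-fold. The grey bar of Acvr2a stays beyond the dotted line, and those of Tgfbr2, Smad2 and Smad7 lie on both sides of 0.

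Tgfb1 encodes TGF-β1, the main TGF-β of lymphocytes (cluster TC0700000424.mm.1). It read 11.05, 11.87 and 11.55 on the CREB-KO arrays and 11.57, 11.51 and 12.34 on the CREB-WT arrays. The lowest value was that of CREB-KO replicate 1 and the highest that of CREB-WT replicate 3, and the other 4 arrays lay between 11.51 and 11.87. The means were 11.49 ± 0.41 (SD, n = 3) and 11.81 ± 0.46 (SD, n = 3), a difference of −0.32 ± 0.30 (SE). Without CREB-KO replicate 1 it was −0.096, without CREB-WT replicate 3 it was −0.050, and with macrophage markers as a covariate it was −0.66 and past the thresholds.

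Lrrc32, the anchor of latent TGF-β1 on Tregs (cluster TC0700001368.mm.1), read 10.08, 12.08 and 10.93 on the CREB-KO arrays and 11.91, 11.53 and 12.45 on the CREB-WT arrays. CREB-KO replicates 1 and 3 lay below every CREB-WT array, while CREB-KO replicate 2 lay above 2 of the 3. The means were 11.03 ± 1.00 (SD, n = 3) and 11.96 ± 0.46 (SD, n = 3), and the difference of −0.93 ± 0.52 (SE) was a 1.90-fold lower level that was not past the thresholds. The value depended on single arrays: it was −1.45 and past the thresholds without CREB-KO replicate 2, −0.45 without CREB-KO replicate 1, and −0.48 without both arrays numbered 1.

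Smad3, the receptor-regulated SMAD that binds DNA directly (cluster TC0900002480.mm.1), read 7.12, 8.05 and 7.50 on the CREB-KO arrays and 8.11, 7.61 and 8.15 on the CREB-WT arrays. CREB-KO replicates 1 and 3 lay below every CREB-WT array and CREB-KO replicate 2 did not, as for Lrrc32. The difference was −0.40 ± 0.27 (SE). It was −0.65 and past the thresholds without CREB-KO replicate 2, −0.18 without CREB-KO replicate 1 and −0.10 without both arrays numbered 1.

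The remaining SMADs differed by less than their spread. Smad2, the partner of SMAD3 (cluster TC1800000816.mm.1), read 8.84, 9.41 and 9.15 on the CREB-KO arrays and 9.09, 8.95 and 9.20 on the CREB-WT arrays. The difference was 0.05 ± 0.17 (SE). All 3 CREB-WT values lay inside the CREB-KO range, and the sign changed in 4 of 17 alternatives. Smad4, the common SMAD that joins SMAD2 and SMAD3 (cluster TC1800001577.mm.1), read 10.38, 10.58 and 10.25 on the CREB-KO arrays and 10.40, 10.04 and 10.30 on the CREB-WT arrays. The difference was 0.16 ± 0.15 (SE). Smad7, the inhibitory SMAD that the pathway itself induces (cluster TC1800000805.mm.1), read 7.13, 7.65 and 7.34 on the CREB-KO arrays and 7.42, 7.35 and 7.46 on the CREB-WT arrays. Its difference was −0.04 ± 0.16 (SE), and the CREB-WT arrays lay close together (SD 0.052) within a wider CREB-KO range (SD 0.26).

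Within a group, most of the 10 genes moved to the same side on the same array. CREB-KO replicate 1 lay below its group mean for 9 of the 10 genes, and CREB-KO replicate 2 lay above it for 9. Among the CREB-WT arrays, replicate 3 lay above its group mean for 9 genes and replicate 2 below it for 8. Over all genes these 4 arrays lay on the same sides for 50.9%, 47.5%, 51.6% and 53.0% of genes. Of the arrays with 9 genes on one side, the exceptions were Acvr1b on CREB-KO replicate 1 and Acvr2a on CREB-KO replicate 2 and CREB-WT replicate 3. CREB-KO replicate 1 held the lowest value of all 6 arrays for 5 genes, and CREB-WT replicate 3 the highest for 4.

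Cell type markers also varied between arrays. Each list was centred per gene on its mean over the 6 arrays and averaged. The Treg and CD4 T cell list (6 of 6 measured) read −0.46, 0.29 and 0.13 on the CREB-KO arrays. On the CREB-WT arrays it read −0.079, −0.047 and 0.17. It was thus lowest on CREB-KO replicate 1 and highest in its group on CREB-KO replicate 2 and CREB-WT replicate 3. On each of these arrays 9 of the 10 genes lay on that same side of their group mean. The lowest CREB-WT value of the list was on replicate 1. What links this list to the 10 genes was not tested. The macrophage and monocyte list (15 of 16 measured) read 0.80, −0.71 and −1.76 on the CREB-KO arrays and 1.35, 0.79 and −0.47 on the CREB-WT arrays. Its extremes were on CREB-KO replicate 3 and CREB-WT replicate 1, where 5 of the 10 genes lay below their group mean and 5 above. All 15 of its markers had a lower mean on the CREB-KO arrays and 0 were past the thresholds, with a mean difference of −1.12. Their levels differed widely. Cd14, a receptor for bacterial lipopolysaccharide, ran from 3.63 to 4.92, and 1 of the 15 lay below the median gene in its mean. Csf1r, the receptor of macrophage growth factor, ran from 5.84 to 10.4 and Hmox1, a haem-degrading enzyme of splenic macrophages, from 7.63 to 13.7.

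The other lists moved less. The B cell list (9 of 10) ran from −0.21 to 0.0055 for CREB-KO and from −0.067 to 0.22 for CREB-WT. The corresponding ranges were −0.14 to 0.22 and −0.061 to 0.028 for platelets and megakaryocytes (8 of 10), −0.22 to 0.0037 and −0.13 to 0.27 for CD8 T and NK cells (6 of 6), and −0.34 to 0.067 and −0.034 to 0.24 for dendritic cells (6 of 6). Means were lower on the CREB-KO arrays for 7 of 9 B cell genes and 5 of 6 CD8 T and NK cell genes. They were also lower for 5 of 6 dendritic cell genes and 5 of 8 platelet genes. Over all genes 12378 of 30184 were lower. The Treg and CD4 T cell list had 4 lower and 2 higher. Itgax of the dendritic cell list was the only marker of any list past the study thresholds. It read 5.43, 5.04 and 5.38 on the CREB-KO arrays and 6.27, 5.88 and 5.45 on the CREB-WT arrays. Pf4 and Ppbp stayed between 3.48 and 4.95, the highest being Pf4 on CREB-KO replicate 1. Gp9 read 6.50, 6.79 and 6.43 on the CREB-KO arrays and 6.14, 6.04 and 6.10 on the CREB-WT arrays. Clec1b ran from 5.32 to 6.99 and Itgb3 from 7.61 to 8.79 over the 6 arrays. In bulk samples such as these, fewer cells of a type and less RNA per cell cannot be told apart. The part of these cells in the values of Tgfb1, Lrrc32 and the SMADs was not tested beyond the covariate fits, in which the difference of Lrrc32 was −1.36 with the macrophage list and −0.90 with the B cell list. Acvr2a was 0.83 with the macrophage list, against 0.84 without it. The macrophage list had a mean difference of −1.12 between the groups, so this covariate overlaps with the labels. The part of macrophages in the Acvr2a difference was not tested.

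**Figure D3:**
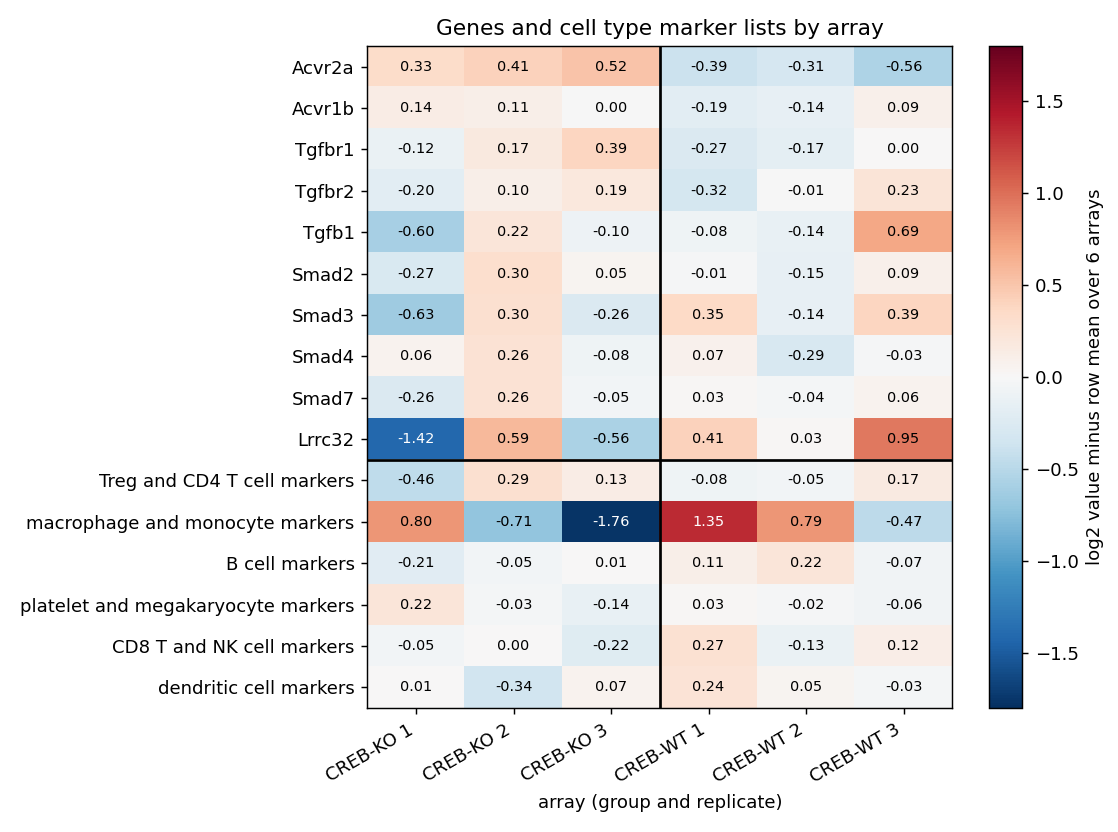
Value of each of the 10 genes and mean of each marker list on each array (columns, 3 CREB-KO then 3 CREB-WT), in log2 units relative to the row's mean over the 6 arrays (red above, blue below). Acvr2a changes colour at the line between the groups, while Lrrc32 is lowest on CREB-KO replicate 1 (−1.42) and highest on CREB-WT replicate 3 (0.95).

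For Acvr2a and Acvr1b the genes with the most similar pattern were sought by Euclidean distance between centred values over the 6 arrays, among 16914 named genes, with predicted genes and small RNAs left out. Nearest to Acvr2a were Stk39, a kinase that acts on ion transporters (distance 0.31, difference 0.62 ± 0.13), Ttn, the giant sarcomere protein titin (0.36, 0.67 ± 0.15), and Plod2, a collagen-modifying lysyl hydroxylase (0.37, 0.71 ± 0.15). Nearest to Acvr1b were Glrx2, a mitochondrial glutaredoxin (distance 0.070), Tomm22, a subunit of the mitochondrial import pore (0.072), and Tescl (0.074). All 3 had differences between 0.15 and 0.17. The neighbours were chosen by these same values, so differences close to those of Acvr2a and Acvr1b follow from the choice.

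The other genes of the pathway were taken from 6 lists arranged by role, with 91 of 98 genes measured on clusters of their own. At the study thresholds 5 were higher and 1 lower, beside the 0.911% higher and 0.659% lower of all genes as deposited, a balance that median centring turned (193 higher and 299 lower). Groups did not overlap for 16 of the 91, beside 11.6% of all genes. The median difference over the 91 was 0.043, beside 0.036 over all genes, and 0 passed at an adjusted p of 0.05 in limma. Of the 91 genes 50 had a mean above the median gene. Nothing is read from these counts either, because the lists were chosen with earlier results of these data known.

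**Figure D4:**
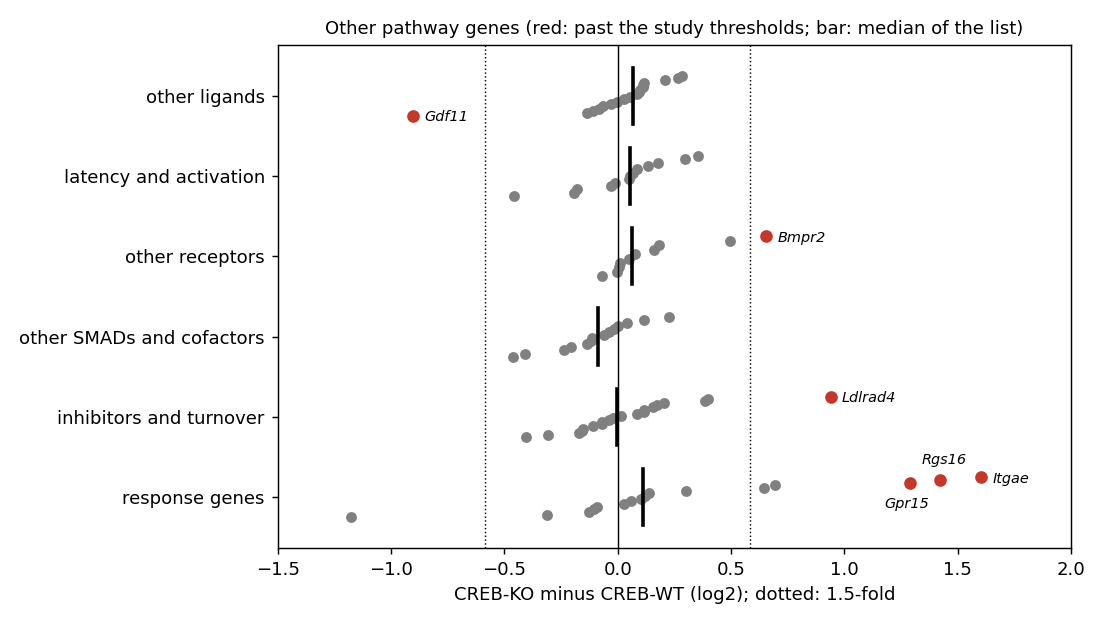
CREB-KO minus CREB-WT difference (log2, horizontal axis) of 91 other pathway genes in 6 lists by role (rows), 1 point per gene, spread vertically in order of the difference. Red points are the 6 genes past the study thresholds, black bars are list medians, and dotted lines mark 1.5-fold; the medians lie between −0.087 and 0.11.

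Among other receptors, 10 of 10 were measured and 1 was higher. Bmpr2, the type II receptor of bone morphogenetic proteins, read 10.89, 11.28 and 11.01 on the CREB-KO arrays and 10.21, 10.56 and 10.44 on the CREB-WT arrays. The groups did not overlap, and the difference was 0.66 ± 0.16 (SE; limma adjusted p = 0.721, unadjusted p = 0.00502). It was just under 1.5-fold without CREB-KO replicate 2 (0.55), without CREB-WT replicate 1 (0.56) and with macrophage markers as a covariate (0.58). Acvr2b, the other activin type II receptor, lay near the bottom of the range at 3.75 and 3.74 in the group means, a difference of 0.01 ± 0.11 (SE). It was named after its values were seen.

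Among other ligands, 18 of 19 were measured, 0 were higher and 1 was lower. Gdf11, a ligand that signals through the activin type II receptors, read 6.13, 5.22 and 5.73 on the CREB-KO arrays and 6.80, 6.62 and 6.36 on the CREB-WT arrays. All 3 CREB-KO values lay below the CREB-WT values, and the difference was −0.90 ± 0.25 (SE; limma adjusted p = 0.816, unadjusted p = 0.0111). It stayed past the study thresholds in all 17 alternatives, from −1.12 to −0.66. Only 2 of the 18 ligands had a mean above the median gene, so most of this list, the activin subunit genes Inhba and Inhbb with it, gave signals too low to carry much information on differences.

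Among 13 of 14 measured genes of latency and activation, 0 were past the thresholds. The smallest p-values belonged to Nrros, which holds latent TGF-β on myeloid cells, with a difference of −0.46 ± 0.26 (SE; limma adjusted p = 0.913, unadjusted p = 0.125), and to Ltbp4, a latent TGF-β binding protein, at 0.18 ± 0.10 (limma adjusted p = 0.913, unadjusted p = 0.134). Nrros read 7.93, 8.78 and 8.18 on the CREB-KO arrays and 9.06, 8.53 and 8.67 on the CREB-WT arrays. As with Lrrc32, CREB-KO replicate 2 lay among the CREB-WT values and the other CREB-KO arrays lay below them. Without CREB-KO replicate 2 the difference of Nrros was −0.70 and past the thresholds.

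Among 14 of 14 measured other SMADs and cofactors, 0 were past the thresholds, and 10 lay below 0 with a median of −0.087. Foxo3 and Foxo1, forkhead factors that can act with SMADs and that are needed in Tregs, had the smallest p-values. Foxo3 read 7.21, 7.66 and 7.62 against 7.89, 7.95 and 7.87 on those labelled CREB-WT, with a difference of −0.41 ± 0.15 (SE; limma adjusted p = 0.873, unadjusted p = 0.0345). Foxo1 read 13.67, 13.88 and 13.70 against 14.04, 14.04 and 14.56, a difference of −0.46 ± 0.18 (SE; limma adjusted p = 0.884, unadjusted p = 0.0393). Neither pair of groups overlapped, and both differences were under 1.5-fold. Foxo1 was past the thresholds with macrophage (−0.60) or B cell markers (−0.64) as a covariate.

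Among 20 of 20 measured inhibitors and turnover factors, 1 was higher. Ldlrad4, a membrane protein that blocks SMAD2 and SMAD3 from their receptor, read 9.26, 9.73 and 9.87 on the CREB-KO arrays and 7.92, 9.13 and 8.98 on the CREB-WT arrays. The groups were separated by 0.13, and CREB-WT replicate 1 lay well below the rest. The difference was 0.94 ± 0.35 (SE; limma adjusted p = 0.873, unadjusted p = 0.035) and was past the thresholds in 11 of 17 alternatives. It no longer passed without CREB-KO replicate 2 (0.89), CREB-KO replicate 3 (0.81) or CREB-WT replicate 1 (0.56), nor with macrophage markers (0.58) or B cell markers (1.12) as a covariate, nor with the methods' t-test (0.94).

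Response genes, known to respond to TGF-β or related ligands in T cells or other cells, were measured for 16 of 21. Past the thresholds 3 were higher and 0 lower, and the median difference of the list was 0.11. Gpr15, a homing receptor for the large intestine on Tregs, read 9.68, 10.06 and 10.64 on the CREB-KO arrays and 9.16, 8.56 and 8.79 on the CREB-WT arrays. The groups did not overlap, and the difference of 1.29 ± 0.28 (SE; limma adjusted p = 0.671, unadjusted p = 0.0032) was past the thresholds in all 17 alternatives, from 1.03 to 1.67.

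Itgae, which encodes CD103, the integrin chain that binds E-cadherin, read 11.12, 11.51 and 13.18 on the CREB-KO arrays and 10.13, 9.82 and 11.05 on the CREB-WT arrays. The groups were separated by only 0.061, and replicate 3 was the highest in both. The difference was 1.60 ± 0.59 (SE; limma adjusted p = 0.873, unadjusted p = 0.0334), and it was past the thresholds in 11 of 17 alternatives. It no longer passed when CREB-WT replicate 1 (1.5), CREB-WT replicate 2 (1.35) or CREB-KO replicate 3 (0.98) was left out, nor with the methods' t-test (1.60) or B cell markers as a covariate (1.65), each time because p was above the limit while the difference stayed beyond 1.5-fold. Rgs16, a regulator of G protein signalling, read 11.21, 12.79 and 13.07 against 10.58, 11.27 and 10.96. Its groups overlapped, since CREB-KO replicate 1 lay just below the highest CREB-WT array, and the difference was 1.42 ± 0.50 (SE; limma adjusted p = 0.871, unadjusted p = 0.0272). Rgs16 no longer passed without CREB-KO replicate 2 (1.21) or 3 (1.06), nor without CREB-WT replicate 1 (1.24) or 3 (1.43), nor with the methods' t-test (1.42).

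Itgae and Rgs16 were highest on CREB-KO replicates 3 and 2, the arrays on which the macrophage list was lowest. Among the CREB-WT arrays Itgae was highest on replicate 3, where that list read −0.47, but Rgs16 on replicate 2, where it read 0.79. With the macrophage list as a covariate the differences of Itgae and Rgs16 were 0.81 and 0.82 and no longer past the thresholds. Gpr15 was 1.07 and still past them. The list itself had a mean difference of −1.12 between the groups, so the covariate overlaps with the labels. The part of macrophages in these differences was not tested. Of the response genes that did not pass, Tgfbi, a secreted matrix protein that macrophages also make, had the most negative difference, −1.18 ± 0.72 (SE; limma adjusted p = 0.913, unadjusted p = 0.151). It read 6.14, 5.06 and 4.60 on the CREB-KO arrays and 6.91, 7.49 and 4.93 on the CREB-WT arrays. Its lowest values were on the replicates numbered 3, where the macrophage list was also lowest within each group. In the other direction, Id2 and Ccr8 also differed by more than 1.5-fold without passing. Id2 was higher by 0.69 ± 0.30 (SE; limma adjusted p = 0.900, unadjusted p = 0.056). Ccr8 was higher by 0.65 ± 0.42 (SE; limma adjusted p = 0.913, unadjusted p = 0.176). Tgfbi, Id2 and Ccr8 were named after their values were seen.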

How the data were processed

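RNA of 6 mice (3 CREB-KO, 3 CREB-WT by their labels) was measured, on 1 array each. The deposited values are log2 expression values that the authors computed by RMA, a method of background correction, normalization between arrays and summary of probes per cluster. The version of RMA and the genome build of the array are not given in the sources used here. Array type, RNA amount and labelling kit are stated differently in different places. Since 1082 clusters exceeded 16 on at least 1 array, the scale is not plain scanner brightness, and a difference of 1 is a 2-fold difference only if the scale is truly log2. The number of arrays limits the precision.

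Genes were named through the platform annotation, which gives exactly 1 symbol for 30646 clusters, several for 2168 and none for 33142. Clusters with several were not used to name genes. Limma (version 3.58.1, R 4.3.3) was fitted to all clusters as deposited, without filter or covariate, with empirical Bayes and two-sided p-values adjusted by Benjamini-Hochberg over all clusters. With 3 arrays a group, the smallest p of an exact permutation test is 0.1. The fit was tested on simulated data. The 10 genes and all lists were chosen with earlier results of these data known. Beyond the 10 genes and Creb1, the text names from each pathway list the genes past the study thresholds, or otherwise the 2 with the smallest p, and for Acvr2a and Acvr1b the 3 genes nearest in pattern, leaving out predicted genes, clone-named loci and small RNAs. Protein sequences were not analysed here. Alternatives were the replicate block, each array left out, the methods' t-test, other normalizations, a filter on dim clusters, 1 cluster per gene, marker covariates and eBayes with trend and robust options. Leaving out both arrays numbered 1 and a platelet marker covariate were added after seeing the data. Covariate and leave-one-out fits have few residual degrees of freedom.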

Additional observations from a re-analysis of the deposited data

How the results depend on the processing

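Of the 10 genes, the count past the study thresholds was 1 and ran from 1 to 3 when arrays were left out one at a time, the 3 being Acvr2a, Smad3 and Lrrc32 without CREB-KO replicate 2. With the macrophage covariate it was 2, Acvr2a and Tgfb1. The 6 other pathway genes past the thresholds became 3 with the methods' t-test and 3 to 9 with arrays left out, the 3 when either CREB-KO replicate 3 or CREB-WT replicate 1 was left out and the 9 without CREB-KO replicate 1. The 1547 clusters past the thresholds were 888 with the t-test, 477 with 1 cluster per gene, 2345 with the macrophage covariate, 2330 without both arrays numbered 1 and 1648 to 2456 with arrays left out, the highest without CREB-KO replicate 1. Of these, the 1067 higher were 642 with the t-test, 276 with 1 cluster per gene and 969 to 1618 with arrays left out. The 480 lower were 246 with the t-test, 201 with 1 cluster per gene, 863 with the macrophage and 736 with the B cell covariate, 847 without both arrays numbered 1 and 517 to 838 with arrays left out. The 7362 clusters whose groups did not overlap were 3510 among clusters above the median, 3499 with 1 cluster per gene, 22423 without both arrays numbered 1 and 13069 to 15084 with arrays left out, since fewer arrays overlap less often and fewer clusters were counted. The falls with 1 cluster per gene also came from counting fewer clusters. On those same clusters the main fit had called 474, of which 275 were higher and 199 lower. The cause of the other changes was not tested. At an adjusted p of 0.05, 0 clusters passed in every setting run.

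The replicate numbers were also fitted as a block, which gave 2037 clusters, 1 of the 10 genes and 8 of the other pathway genes past the thresholds. The 6 pathway genes past the thresholds without the block were past them with it too. The deviations of same-numbered arrays correlated at 0.22, 0.018 and 0.041 for numbers 1, 2 and 3, and 3 of 6 arrays correlated best with their own number, so the numbers were not taken to pair the mice. This comparison was over all clusters. The macrophage list fell from number 1 to number 3 within both groups, and the labels do not say whether the mice were paired.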

Other observations

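Among the inhibitors of the pathway, Smurf2, a ubiquitin ligase that marks receptors and SMADs for degradation, differed by 0.40 ± 0.13 (SE; limma adjusted p = 0.846, unadjusted p = 0.0196). Ski, a corepressor of SMADs, differed by −0.31 ± 0.11 (limma adjusted p = 0.873, unadjusted p = 0.0328). Smurf2 read 10.46, 10.63 and 10.35 on the CREB-KO arrays against 10.20, 10.03 and 10.02, and Ski read 9.04, 9.19 and 9.05 against 9.39, 9.33 and 9.49. Both differences were under 1.5-fold, with groups that did not overlap, beside 11.6% of all genes. These genes were named after their values were seen.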
